A study of Homo sapiens with 6 samples.

Results

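The genes described here are 10 regulators and receptors of mesoderm, the middle germ layer, examined in human pluripotent stem cells before any differentiation. The list was set by name, and its members are TBXT, MIXL1, MESP1, MSGN1, TBX6, HAND1, ISL1, NKX2-5, PDGFRA and KDR, which are 10 of the 20037 protein-coding genes of the RefSeq table of GRCh38.p14. Every open-chromatin summit inside a gene or within 20 kb of it was taken, and these were 180 of the 356720 summits of the series. ATAC-seq cuts open chromatin with a transposase, and a summit is the position of strongest signal in a peak that the authors called in 1 library. The cells were of the H1 line, an established human embryonic stem cell line, grown in mTeSR1 medium on Matrigel. All of them had been infected with a lentivirus carrying a short hairpin RNA and selected with puromycin. The 4 shHNRNPU libraries carried a hairpin against HNRNPU, a nuclear RNA-binding protein, with 2 libraries for shHNRNPU #1 and 2 for shHNRNPU #2. The 2 shLUC libraries carried a control hairpin against luciferase. The labels number the libraries of a group as repeats and do not say that they came from separate cultures, so the spread between them may be technical. The series asks what HNRNPU and the nuclear matrix do in pluripotent cells. The lists give neither reads nor expression, so neither sequencing depth nor the extent of the knockdown can be read from them.

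Mesoderm arises when epiblast cells pass through the primitive streak under WNT, NODAL and BMP signals. TBXT, a T-box factor also known as brachyury, and the homeobox factor MIXL1 mark the streak. MESP1 is a helix-loop-helix factor of the earliest cardiac mesoderm, and MSGN1 and TBX6 act in the paraxial mesoderm that forms somites. HAND1, ISL1 and NKX2-5 are transcription factors of lateral and cardiac mesoderm. PDGFRA, a receptor for platelet-derived growth factor, and KDR, a receptor for vascular endothelial growth factor, are used to sort mesodermal progenitors. In undifferentiated cells such genes are mostly silent, and many of them have starts rich in CG dinucleotides.

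The starts of these genes differed in sequence, and the 6 windows shown were chosen because they include the genes with 2 listed starts and the richest and the poorest start in CG. Each line gives the 250 bases before a listed start, read 5′ to 3′ along the gene, with CG dinucleotides in capitals. The sequences are from RefSeq (GRCh38.p14), where a start was listed for 8 of the 10 genes and not for MESP1 and NKX2-5.
TBXT outer start, chr6:166168656-166168905, minus strand: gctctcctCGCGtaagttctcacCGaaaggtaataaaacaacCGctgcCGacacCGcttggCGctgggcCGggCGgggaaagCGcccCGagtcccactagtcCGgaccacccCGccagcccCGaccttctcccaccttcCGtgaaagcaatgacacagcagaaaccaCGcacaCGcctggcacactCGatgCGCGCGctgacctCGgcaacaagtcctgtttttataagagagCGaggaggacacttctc
TBXT inner start, chr6:166167852-166168101, minus strand: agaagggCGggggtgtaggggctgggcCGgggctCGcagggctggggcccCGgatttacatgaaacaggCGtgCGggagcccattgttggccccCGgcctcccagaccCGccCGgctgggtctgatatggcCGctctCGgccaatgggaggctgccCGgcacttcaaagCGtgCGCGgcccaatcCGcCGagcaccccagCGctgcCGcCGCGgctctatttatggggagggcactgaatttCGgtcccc
MIXL1, chr1:226223414-226223663, plus strand: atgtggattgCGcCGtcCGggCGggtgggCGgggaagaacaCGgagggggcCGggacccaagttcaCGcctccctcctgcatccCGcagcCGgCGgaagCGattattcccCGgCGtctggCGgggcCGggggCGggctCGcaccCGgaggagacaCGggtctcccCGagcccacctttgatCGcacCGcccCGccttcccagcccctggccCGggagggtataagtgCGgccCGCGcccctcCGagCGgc
MSGN1, chr2:17816210-17816459, plus strand: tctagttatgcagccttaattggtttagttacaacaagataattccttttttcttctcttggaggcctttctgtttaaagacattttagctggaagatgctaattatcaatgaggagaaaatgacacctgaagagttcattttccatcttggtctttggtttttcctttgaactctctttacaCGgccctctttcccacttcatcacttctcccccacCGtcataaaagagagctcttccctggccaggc
PDGFRA outer start, chr4:54229043-54229292, plus strand: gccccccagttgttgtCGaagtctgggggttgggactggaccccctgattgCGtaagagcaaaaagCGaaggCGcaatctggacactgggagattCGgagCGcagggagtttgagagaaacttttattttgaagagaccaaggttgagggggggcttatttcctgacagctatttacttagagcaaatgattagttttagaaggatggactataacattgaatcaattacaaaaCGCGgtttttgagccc
PDGFRA inner start, chr4:54233710-54233959, plus strand: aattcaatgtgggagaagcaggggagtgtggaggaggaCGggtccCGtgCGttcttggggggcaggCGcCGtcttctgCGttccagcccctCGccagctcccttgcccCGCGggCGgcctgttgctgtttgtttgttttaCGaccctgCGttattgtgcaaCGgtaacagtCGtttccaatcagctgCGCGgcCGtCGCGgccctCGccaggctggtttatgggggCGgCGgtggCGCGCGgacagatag
Over the whole window of 300 bases, of which the last 50 lie after the start, MIXL1 had 37 CG and stood at percentile 90.1 of the 35116 listed promoters. MSGN1 had 3 CG, at percentile 24.5. The outer start of PDGFRA had 8, against 32 at its inner start. The starts of TBX6 and ISL1, with 35 and 36 CG, were close to MIXL1, and HAND1 and KDR, with 21 and 22, were close to the inner start of TBXT with 22.

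Most of these genes had open chromatin at an end before differentiation. A gene end was called open in a library that had a summit within 1000 bp of it, each summit counting for the nearer end of the gene. The outer start, which is the end of the gene's span where transcription begins, was open in all 6 libraries for TBXT, MIXL1, TBX6, HAND1, ISL1 and KDR, which are 6 of the 8 genes with a listed start. Of all 15843 protein-coding genes with a listed start, 63.4% had an outer start open in all 6 libraries. The ends of MESP1 and NKX2-5 with the higher coordinates were open in 6 libraries as well. With these, 8 of the 10 genes had an end open in every library, against 63% of all protein-coding genes, so that a list of 10 lay within 2 genes of the share of the genome. The exceptions were MSGN1, with an open start in 5 libraries, and PDGFRA, whose outer start had no summit within 1000 bp in any of the 6. The far end of a gene was open only once, in shLUC repeat 1 at ISL1. With a distance of 500 bp instead, 5 outer starts were open in every library, without TBXT, none of whose summits lay that near.

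**Figure D1:**
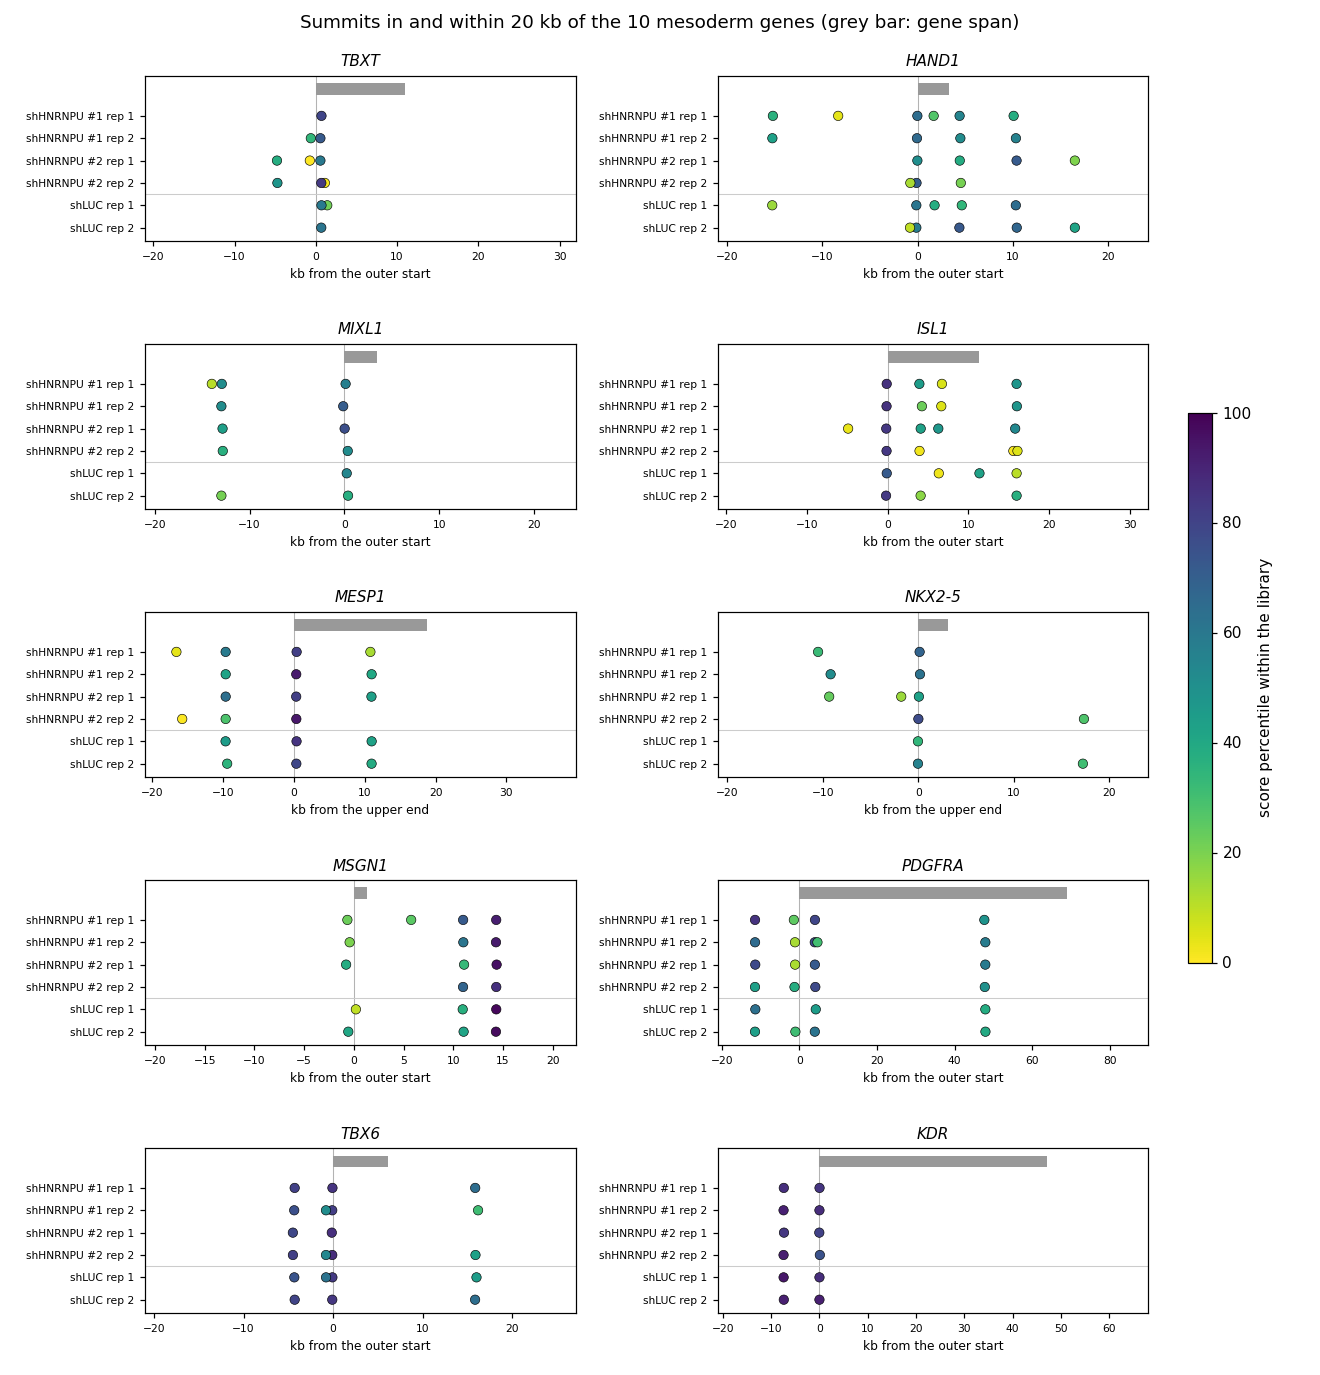
Each panel plots the summits of one gene against the distance in kb from its outer start, or from its upper end for MESP1 and NKX2-5, with one line per library and the score percentile within the library as colour; the grey bar is the gene. Of the 10 genes, 9 have a summit within 1000 bp of the zero line in at least 5 libraries, and PDGFRA has its strong summits before and after it.

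The strength of a summit was described by its score, the −log10 of the q-value of its peak, turned into a percentile within its own library, where 100 is the highest. The scores themselves were not normalized between libraries. Summits from different libraries counted as the same locus when they lay within 250 bp of its centre. The 10 windows held 55 loci, of which 16 (29.1%) were called in all 6 libraries, against 20.7% of the 123131 loci of the genome. Another 13 (23.6%) were called in 1 library. A total of 15 loci lay within 1000 bp of an end of their gene, and 7 others lay within 1000 bp of an end of some other gene, at PPP4C, YPEL3 and YPEL3-DT beside TBX6, at SAP30L and LOC100128833 beside HAND1, and at LNCDAT, one end of which lies inside TBXT.

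Among the streak genes, TBXT had its strongest locus between its listed starts. The locus at chr6:166167979, inside the gene and 128 bp before the inner start, was called in all 6 libraries. Its percentiles were 79.6 and 72.2 with shHNRNPU #1, 59.4 and 83.0 with shHNRNPU #2, and 59.6 and 61.0 with shLUC. The groups overlapped, since 1 shHNRNPU library lay below both controls (difference 13.3 points, two-sided exact permutation p = 0.4). This summit fell in the window of the inner start printed above in every library, whereas 0 libraries had a summit in the window of the outer start. The locus was also within 1000 bp of the outer start and 118 bp from an end of the long noncoding RNA gene LNCDAT. Its signal cannot be assigned to one of these starts from the summits alone. A weaker locus 611 bp before the outer start was called only in shHNRNPU #1 repeat 2 and shHNRNPU #2 repeat 1, at percentiles 34.0 and 0.0394. Another, 4726 bp before the outer start, was called only in the 2 shHNRNPU #2 libraries, at 38.1 and 47.8.

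MIXL1, with the start richest in CG, had start summits that did not fall at the same base in each library. The locus 28 bp after the start was called in 4 libraries, and the locus 357 bp after it in 4, with shHNRNPU #1 repeat 1 and shLUC repeat 1 holding 1 summit that matched both. Every library thus had a summit near the start, at percentile 57.2, 70.7, 76.0 and 51.8 with shHNRNPU and 54.2 and 37.3 with shLUC. The groups overlapped, since shLUC repeat 1 lay above 1 of the shHNRNPU libraries. A distal locus at chr1:226210697, 12967 bp before the start, was called in all 4 shHNRNPU libraries, at percentiles 51.3, 51.3, 44.1 and 36.8. It was called in shLUC repeat 2 at percentile 20.8 and was not called in shLUC repeat 1, so every shHNRNPU library stood above the single control value. Whether a locus without a summit is closed or below the calling threshold cannot be told apart without reads.

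By mean percentile, MESP1 had the strongest summit at a gene end among the transcription factors of the list. It stood at 85.5, little above the TBX6 start at 84.6, which was higher in some libraries. The locus at chr15:89750907, 342 bp inside its upper end, stood at percentiles 81.3 and 92.7 with shHNRNPU #1, 81.6 and 93.7 with shHNRNPU #2, and 85.1 and 78.8 with shLUC. The groups overlapped, with a difference of 5.38 points (two-sided exact permutation p = 0.533). A locus 9634 bp beyond that end was also called in every library, from 28.2 to 63.9. Inside the gene, a locus 10953 bp from the upper end was called in 5 libraries at 13.2 to 43.4 and was missing in shHNRNPU #2 repeat 2. MSGN1 had a weak start, and a strong distal locus lay in its window. Its start had summits at percentiles 22.6, 19.9 and 38.6 in the shHNRNPU libraries that held one and 9.39 and 40.4 with shLUC. shHNRNPU #2 repeat 2 had none. By contrast, the locus at chr2:17830795, 14335 bp after the start and beyond the gene, was the highest of the 55 by mean percentile, at 93.5. It lies 12997 bp from the nearer end of MSGN1 but 3898 bp from an end of another gene. Whether it belongs to MSGN1 was not tested.

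That distal MSGN1 locus was the single locus lower with shHNRNPU with no overlap of the groups. Its percentiles were 91.7, 92.9, 95.6 and 86.1 with shHNRNPU, against 97.9 and 97.0 with shLUC. The shHNRNPU mean of 91.6 ± 4.00 (SD, n = 4) stood below the shLUC mean of 97.5 ± 0.626 (SD, n = 2), a difference of -5.90 points (two-sided exact permutation p = 0.133, the smallest possible). A neighbouring locus 11001 bp after the start ran the other way on average, from 32.9 to 72.0 with shHNRNPU and at 36.8 and 41.7 with shLUC, but the groups overlapped. At TBX6, the locus 90 bp before the start lay between 81.7 and 87.5 in all 6 libraries and differed by 1.69 points (two-sided exact permutation p = 0.533). It lies 300 bp from an end of YPEL3, so it is shared ground between neighbours. Another locus, 20 bp from an end of another gene and within 1000 bp of ends of both YPEL3 and YPEL3-DT, was of similar height, from 74.1 to 81.3.

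The cardiac and lateral factors each had a locus at a start or upper end in every library, at percentiles from 34.2 to 85.6. HAND1 had the most loci of the 10, with 10 in its window, but 1 was called in every library. That locus, at chr5:154478345 and 118 bp before the start, stood at 64.5, 65.7, 50.8 and 70.5 with shHNRNPU and 61.0 and 57.9 with shLUC, and the groups overlapped. Beyond the far end of the gene, summits 4389 and 4641 bp after the start made up a pair of loci called in 5 libraries each, with percentiles from 20.7 to 72.4. Every library had 1 summit in this stretch. The shHNRNPU summits matched both loci, and each control summit matched 1. A pair farther out, 10090 and 10399 bp after the start, was called in 3 and 4 libraries. The upper end of NKX2-5 had a locus called in each library, centred 5 bp inside it at chr5:173235201. The shHNRNPU summits lay 5 to 172 bp inside the end, and both shLUC summits lay just beyond it. The percentiles of the locus were 68.1, 62.1, 42.7 and 77.0 with shHNRNPU and 34.2 and 55.7 with shLUC. The groups overlapped, with a difference of 17.5 points (two-sided exact permutation p = 0.267). No other locus of NKX2-5 was called in more than 2 libraries. The highest of those values was 51.6, 9187 bp beyond the upper end in shHNRNPU #1 repeat 2, where shHNRNPU #2 repeat 1 had 23.7.

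The start of ISL1 varied little between the shHNRNPU libraries. The locus at chr5:51383346, 102 bp before the start and 14 bp from an end of the divergent noncoding gene ISL1-DT, stood at 85.6, 85.4, 83.8 and 83.8 with shHNRNPU. In shLUC it stood at 71.5 and 83.4. The 4 shHNRNPU values were above both controls by 7.19 points on average (two-sided exact permutation p = 0.133), but the gap to the nearer control was under 1 point, and the difference fell to 1.25 points without shLUC repeat 1. Weaker loci inside the gene, 3941 to 6730 bp after the start, were called in 2 to 4 libraries each.

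The receptors showed both extremes. PDGFRA had no summit within 1000 bp of its outer start, the one poor in CG, but a locus 641 bp before its inner start, at chr4:54233319, was called in all 6 libraries. With every listed start counted, 7 of 8 genes had one open in all libraries, against 68.5% of all genes with a listed start. This count was added after the second start of PDGFRA had been seen. The percentiles of the locus were 78.9 and 77.0 with shHNRNPU #1, 71.6 and 77.5 with shHNRNPU #2, and 45.2 and 61.7 with shLUC. The control values were thus the lowest of the 6, with means of 76.2 ± 3.20 (SD, n = 4) and 53.5 ± 11.6 (SD, n = 2). The difference of 22.8 points was the largest among the 16 loci called in every library (two-sided exact permutation p = 0.133). With a match distance of 100 bp the locus was not held by all libraries. Without shLUC repeat 1 it was 14.5 points. The scores behind these ranks were 18.6, 16.7, 12.2 and 18.7 with shHNRNPU and 6.93 and 9.57 with shLUC.

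A second PDGFRA locus separated the groups in the same direction. It lies inside the gene at chr4:54277218, 43258 bp after the inner start, and stood at 48.6, 58.3, 59.0 and 49.7 with shHNRNPU against 38.4 and 39.7 with shLUC. The difference was 14.8 points (two-sided exact permutation p = 0.133). It was not held by all libraries with a match distance of 100 bp, with a score of at least 5 or without shHNRNPU #2 repeat 1, and the summit of shHNRNPU #1 repeat 1 lay at the very limit of the 250 bp. The scores there were 7.45, 9.19, 8.52 and 8.36 with shHNRNPU and 5.91 and 5.59 with shLUC. A locus 11415 bp before the outer start did not separate them, with 85.5, 65.3, 77.7 and 43.4 against 63.4 and 43.9. A weak locus 1244 bp before the outer start, at percentile 12.7 to 37.8, was called in all libraries but shLUC repeat 1. KDR, 780 kb further along the same chromosome, was the most uniform gene in its number of summits. It had exactly 2 summits in every library. The locus 30 bp after its start stood at 84.7, 87.5, 80.4 and 74.7 with shHNRNPU and 87.0 and 91.0 with shLUC. The locus 7390 bp before the start was higher still, from 84.3 to 93.5. Both KDR loci were lower on average with shHNRNPU, by differences of -7.22 and -4.04 points, with overlapping groups (two-sided exact permutation p = 0.267 for each).

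**Figure D2:**
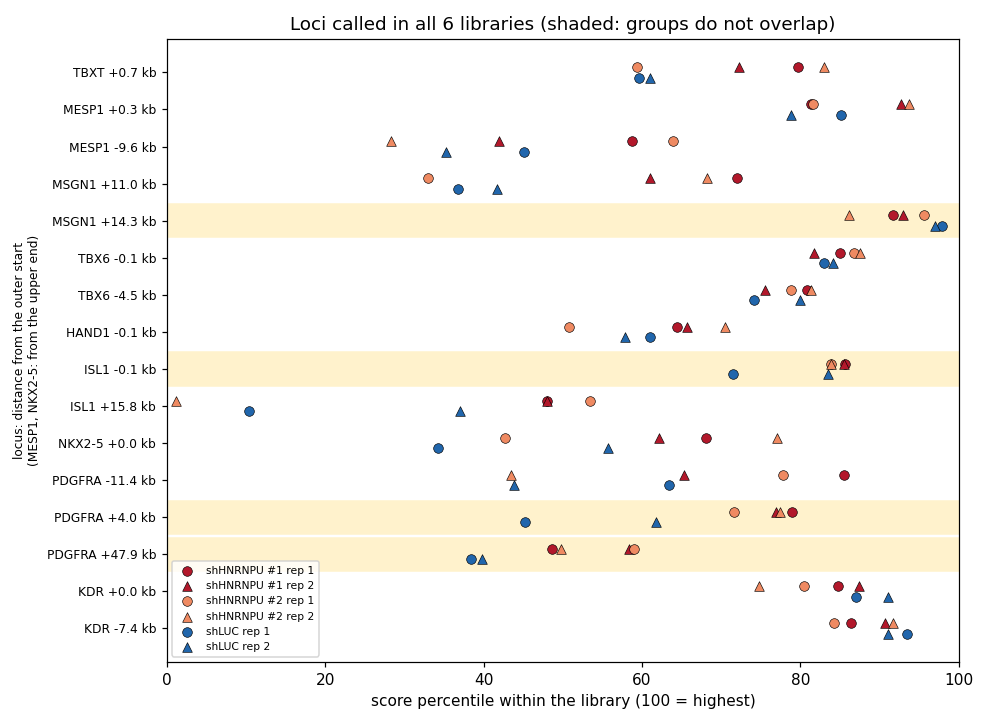
Each row is one of the 16 loci called in all 6 libraries, placed by its distance in kb from the outer start, or upper end, of its gene; each point is the score percentile in 1 library, red and orange for shHNRNPU #1 and #2 and blue for shLUC, and shading marks rows where the groups do not overlap. The shaded PDGFRA rows lie 22.8 and 14.8 points higher with shHNRNPU, the ISL1 row 7.19 points higher and the MSGN1 row lower.

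The question set by the design was whether knockdown of HNRNPU changed these genes as a set. Of the 16 loci called in every library, 3 were higher with shHNRNPU with no overlap (18.8%), where 10.9% of all 25519 such loci in the genome were, and 1 was lower (6.25%), where 13.9% were. With 16 loci, these shares differ from the background by 1 or 2 loci. The mean percentile was higher with shHNRNPU at 13 of the 16 loci, against 47.5% of all such loci, and the median difference was 7.62 points against -0.29 points. The exceptions were the distal MSGN1 locus and both KDR loci. Averaged over the 16 loci, the libraries stood at 75.0, 72.4, 68.9 and 68.6 with shHNRNPU and at 61.6 and 65.0 with shLUC. The groups did not overlap in this average, but they did with a match distance of 100 bp, where the difference of 7.91 points fell to 3.79. Without shLUC repeat 1 it was 4.48 points. The average gave a two-sided exact permutation p of 0.133, the smallest possible, and of 0.267 with a match distance of 100 bp. The shares and the median are descriptions of a list chosen by name, with several loci per gene, and they carry no test.

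Nearness to gene ends moved with this measure across the genome. The mean percentile was higher with shHNRNPU at 56.7% of the loci that lay no more than 1000 bp from where a protein-coding gene starts or ends, and at 42.1% of those farther away. Among the mesoderm loci it was higher at 7 of 8 near such an end and at 6 of 8 away from one, and the part of nearness to gene ends in the higher ranks was not tested. Other lists gave shares on both sides of that of the genome. The mean percentile was higher with shHNRNPU at 10 of 15 loci of the pluripotency genes and at 8 of 13 of the primitive streak list. It was higher at 11 of 20 loci of the paraxial list, 9 of 18 of the cardiac and lateral list and 6 of 14 of the blood and endothelium list. Definitive endoderm gave 5 of 12 and neuroectoderm 12 of 23. Whether the 10 mesoderm genes differ from these lists was not tested. The part of library depth in these ranks was not tested either.

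Presence of a summit gave no lost or gained locus in the windows. A locus was called lost if both shLUC libraries and none of the shHNRNPU libraries had it, and gained in the reverse case. Of the 55 loci, 0 were lost and 0 gained, where 1.93% of all loci were lost and 0.88% gained, shares that over 55 loci come to about 1 locus or fewer. Loci seen in shHNRNPU libraries only numbered 14 and loci seen in shLUC libraries only numbered 3, with 4 libraries against 2 and at most 2 libraries holding any of them. Their percentiles did not exceed 51.6. The shares of all loci seen in 1 group only are not given, so 14 against 3 is not a result about these genes. The upstream MIXL1 locus and the weak PDGFRA locus before the outer start were each called in 4 shHNRNPU libraries and missing in 1 control. The HAND1 loci 4389 and 4641 bp after the start had the same pattern only by the matching. Every library, controls included, had 1 summit there, and the shHNRNPU summits matched both loci.

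The number of summits per window overlapped between the groups at every gene. TBXT had 1, 2, 3 and 3 summits with shHNRNPU and 2 and 1 with shLUC. HAND1 had 6, 4, 4 and 3 against 5 and 5, and TBX6 had 3, 4, 2 and 4 against 4 and 3. Groups without overlap were thus seen at 0 of 10 genes, whereas among the 18733 protein-coding genes with a summit in their window 3.92% were lower and 3.54% higher with no overlap. Differences in means lay between -0.75 summits at HAND1 and 0.75 summits at TBXT, MIXL1, ISL1, NKX2-5 and PDGFRA, with two-sided exact permutation p from 0.533 to 1. The 10 windows together held 33, 31, 31 and 29 summits with shHNRNPU and 28 and 28 with shLUC. As a share of a library's summits this was 0.0533% ± 0.00327 (SD, n = 4) and 0.0453% ± 0.000424 (SD, n = 2). All 4 shHNRNPU libraries stood above both controls in number and in share. With a score of at least 5, the difference in number fell from 3 to 1.25 summits and the groups overlapped, as they did with windows of 10 kb, where it was 1.75. The shares did not overlap under either.

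**Figure D3:**
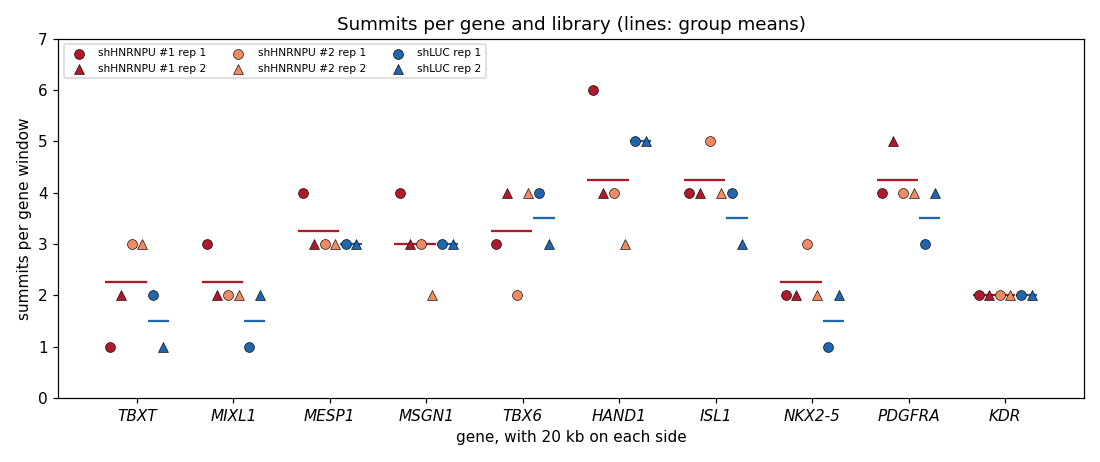
Points give the number of summits in the window of each gene for each of the 6 libraries, and lines give the group means. At every gene the points of the groups overlap, from KDR with 2 in every library to HAND1 with 3 to 6.

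With 4 libraries against 2 there are 15 assignments, and the smallest two-sided p of the exact permutation test is 0.133. No gene or locus could therefore reach 0.05. With or without adjustment, 0 genes passed. After Benjamini-Hochberg adjustment the lowest p was 1 over the genes and 0.538 over the loci called in all libraries.

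**Figure D4:**
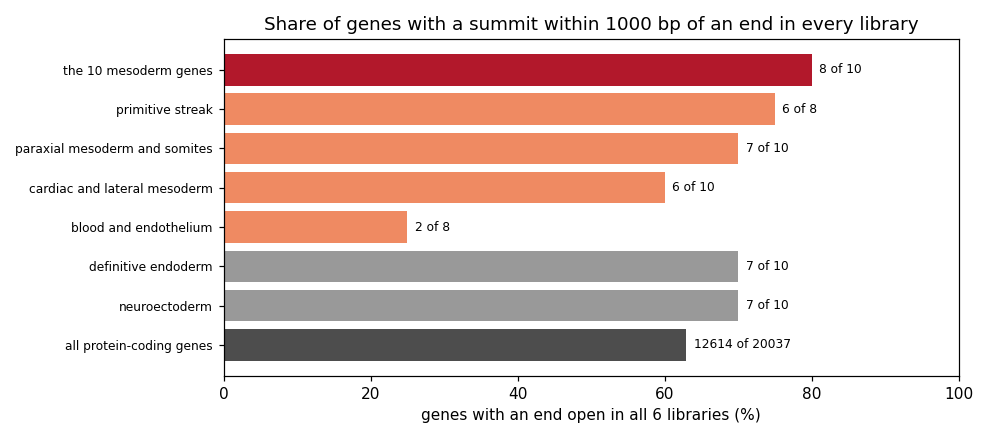
Bars give the percentage of genes in each list with a summit within 1000 bp of an end in all 6 libraries, with the counts beside them. The 10 mesoderm genes stand at 8 of 10 and the blood and endothelium list at 2 of 8, around 12614 of 20037 for all protein-coding genes.

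The wider programme was described with 36 further mesoderm genes in 4 lists. An end was open in all 6 libraries at 6 of 8 primitive streak genes, 7 of 10 genes of paraxial mesoderm and somites, 6 of 10 of cardiac and lateral mesoderm and 2 of 8 of blood and endothelium. The 36 genes together gave 21, or 58.3%. No end was open in any library at NODAL, MEOX1, MEF2C, GATA2, RUNX1 and CDH5, although NODAL, MEF2C, GATA2 and RUNX1 had some other listed start open in all 6, as PDGFRA did. Endoderm and neuroectoderm lists of 10 genes each gave 7 and 7. The window count was higher with shHNRNPU without overlap at 4 of the 36 genes and lower at 2, where the shares over all genes were 3.54% and 3.92%, which over 36 genes come to about 1 gene each. FOXH1, a partner of SMAD proteins in NODAL signalling, had 7 to 8 summits against 4 and 5, and GATA4, a cardiac and endodermal factor, had 12 to 14 against 11 and 9. BMP4, a ligand that induces mesoderm, had 5 to 7 against 4 and 4, and DLL3, a NOTCH ligand of the somites, had 5 to 6 against 4 and 4. RIPPLY2, a repressor at somite borders, had 2 in each against 3 and 3, and FOXC2, a forkhead factor of paraxial mesoderm, had 3 to 4 against 5 and 6. Each had the smallest p of the exact permutation test, 0.133. Of the 65 loci of these genes called in every library, the percentile was higher with shHNRNPU without overlap at 11 and lower at 5, beside 10.9% and 13.9% of all such loci.

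Gene ends were also examined at 6 genes of pluripotency. POU5F1, SOX2, NANOG, LIN28A, DNMT3B and SALL4 each had an end open in at least 1 library, and LIN28A, DNMT3B and SALL4 in all 6. That is 50% of the list, against 63% of all protein-coding genes, so the count cannot tell whether the label of the cells is right. The defining factors POU5F1, SOX2 and NANOG had an end open in 1, 3 and 3 libraries at this distance, with summits elsewhere in their windows in every library. NANOG had 2, 2, 1 and 1 summits with shHNRNPU and 4 and 3 with shLUC, lower without overlap. SALL4 had 4 in each against 3 and 3, higher without overlap. The list thus had 1 gene lower and 1 higher of 6, beside 3.92% and 3.54% of all genes tested. Open chromatin is not expression, and the lists give no measure of how many cells, if any, had begun to differentiate.

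Letters of known motifs were searched in the 300 bases around each listed start, on both strands. The T-box motif TCACACC was in 3.45% of all promoters and in none of the 10 listed for these genes. The octamer motif ATTTGCAT was in 1.77% of all promoters and in none of these. The TCF/LEF motif CTTTGAT, in 2.62% of all promoters, was found 76 bp before the start of MIXL1. It also lay 46 bp before that of HAND1, on the strand opposite to the gene. The GATA motif AGATAA, in 10.3% of all promoters, lay 214 bp before the start of MSGN1 and 31 bp before that of ISL1. The TATA motif TATAAA, in 11.5%, lay 29 bp before the outer start of TBXT, but on the strand opposite to the gene. These are matches of letters and not evidence of binding.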

How the data were processed

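The 6 files are summit lists of ATAC-seq libraries, one per library, with summits of 1 bp and a score. Per the labels, the submitters' processing notes name cutadapt, Bowtie2, SAMtools, MACS2 and deepTools and the build hg38, with no versions or parameters. The score the authors deposited was made by their peak caller and is, from its values (lowest 1.30), the −log10 of a peak's q-value. Libraries held 52168 to 63519 summits with median scores of 6.91 to 8.43, and peaks were called per library. Depth is unknown. The study paper given with the series describes other libraries and was used for style only.

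Windows reached 20 kb beyond each gene of RefSeq GRCh38.p14. Loci were built over the genome by taking summits in order of percentile and absorbing those within 250 bp. A summit may match 2 loci. Groups of 4 and 2 libraries were compared with exact permutation tests over 15 assignments, the smaller tail doubled, for every protein-coding gene and every locus called in all libraries. The 4 shHNRNPU libraries pool 2 hairpins, so their SD mixes the spread between hairpins and between repeats. The permutations do not take the hairpins into account. Members, lists and tests were chosen with earlier results of these data known. All 10 genes are named. Loci named were those nearest the ends, the strongest per gene, lost or gained loci and those whose groups do not overlap, with a few others chosen after their values were seen. As alternatives, summits scored below 5 were dropped, lists were cut to one size, windows were set to 10 and 50 kb, match distances to 100 and 500 bp and start distances to 500 and 2000 bp, absence was judged within 1000 bp, single libraries were left out, and labels were permuted inside repeat numbers. The functions were tested on simulated data. Analyses used Python 3.11.15, numpy 2.4.6, pandas 2.3.3, scipy 1.17.1 and matplotlib 3.10.9.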

Additional observations from a re-analysis of the deposited data

Results flagged for a closer look

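Among 28 measures, a shHNRNPU library far from the other 3 was seen in 6. The rule is expected to pick about 1 in 20 groups of continuous values by chance, or 1.4 of 28, but this rate does not apply to small counts with ties. Of the 6, 5 were such counts, in which a single library had 1 summit more than the other 3, which were equal. They were MIXL1 with 3 summits and MESP1 with 4 in shHNRNPU #1 repeat 1, ISL1 with 5 and NKX2-5 with 3 in shHNRNPU #2 repeat 1, and PDGFRA with 5 in shHNRNPU #1 repeat 2. The remaining one was the locus 15797 bp after the start of ISL1, which stood at percentile 1.10 in shHNRNPU #2 repeat 2 and between 47.9 and 53.4 in the other 3 shHNRNPU libraries. That library had a further summit nearby, at percentile 5.31, and the shLUC libraries stood at 10.4 and 37.0. No measure moved one way in both libraries of 1 hairpin and the opposite way in both libraries of the other, relative to shLUC.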

How the results depend on the processing

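Of 250 recomputed values, 223 kept their direction or stayed within 1.5 times of a count, 23 moved and 4 reversed. No side of a threshold could be lost, since the tests cannot reach 0.05. A score of at least 5 gave 1 gained locus and 1 gene higher without overlap, both at MIXL1. A window of 50 kb gave 1 lost locus at NKX2-5 and 1 gene higher, TBX6, where the difference turned from -0.25 to 1.5 summits. A window of 10 kb turned MESP1 to -0.25 summits, and a match distance of 100 bp gave 1 gained locus at HAND1. The cause of these shifts was not tested beyond the number of summits that enter.

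Leaving out one library at a time gave 0 to 3 lost and 0 to 2 gained loci, and 0 to 1 genes lower and 0 to 3 higher, as fewer libraries must follow the pattern. The gene lower was HAND1 without shHNRNPU #1 repeat 1, and the 3 higher were MIXL1, NKX2-5 and PDGFRA without shLUC repeat 2. ISL1 was higher without shLUC repeat 1. TBX6 ranged from -0.75 to 0.25 summits. The number of outer starts open in every library was 6 to 7. The difference in the average percentile was 4.48 to 9.44 points, lowest without shLUC repeat 1. The difference in summits over the windows was 1.75 with windows of 10 kb and 5.5 with windows of 50 kb.

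With the replicate block, that is permutation within repeats, differences are the same by construction, such as 22.8 points at PDGFRA, and the smallest p is 0.222 by exact permutation. Deviations of same-numbered libraries correlated by -0.0438 to 0.00125, so these values showed no pairing by repeat number. They cannot tell whether same-numbered libraries were prepared together, and the labels do not say. With a match distance of 100 bp, neither PDGFRA locus whose groups did not overlap was held by all libraries.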
